A study of Mus musculus with 8 samples.

Results

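The 38 genes described here encode proteins of the lysosome and of the vacuolar ATPase, with the 3 transcription factors Tfeb, Tfe3 and Mitf. They were chosen by name and role from a table of 23366 genes, by a rule that uses no measured value though earlier results of these data were known, and all 38 were found. By role they are 9 cathepsins, 11 other hydrolases and their activators, 9 membrane, sterol transport and channel proteins, 6 vacuolar ATPase genes and the 3 factors. All 38 passed the filter on low values, which left 11919 tested genes in all. Their fewest reads in a library were 343, for Ctsk.

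The samples are macrophages grown from mouse bone marrow, in 4 groups of 2 RNA-seq libraries. The groups were Lsd1SA/SA knock-in cells given lipopolysaccharide (LPS) for 2 h, untreated knock-in cells, wild-type cells given LPS for 2 h, and untreated wild-type cells. The series' text describes the knock-in protein, a form of the histone demethylase LSD1, as one that cannot be phosphorylated normally. All 4 groups have a C57BL/6 background, are at passage 1 and were kept without serum for 24 h. LPS, a bacterial cell wall lipid that macrophages sense, has a labelled dose of 1 mg/ml, which is high for macrophages and whose unit could not be checked. In knock-in LPS the sample title shows no more than 2 h, and a further label gives the agent. No label gives the animal, its age or the factor used to grow the macrophages, and none says whether the replicates are separate cultures. The p-values therefore measure only the spread between these libraries, which may be technical. Library totals were 40379258 to 55595160 reads. Values below are the deposited scaled CPM (reads on a gene per library size after the authors' scaling), which are not divided by transcript length, so levels are compared between groups and not between genes.

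Lysosomes digest proteins, glycans and lipids that reach them by endocytosis, phagocytosis and autophagy. The vacuolar ATPase pumps protons into the lumen, and the acid activates most of the hydrolases. Tfeb, Tfe3 and Mitf bind E-box sequences in the promoters of many lysosomal genes and are held in the cytoplasm or released to the nucleus by signalling at the lysosomal surface. Macrophages are rich in lysosomes, where they digest what they take up.

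Before the results, 1 property of the libraries labelled knock-in LPS bears on them. Xist, made from the inactive X chromosome, was at 0.366 and 0.212 in them, against 315 to 437 in the others. Reads on 4 genes of the Y chromosome (Ddx3y, Eif2s3y, Kdm5d, Uty) came to 4993 and 5122 in them, against 0 to 2 in the others. Knock-in LPS therefore differs from each other group by sex as well as by label, and sex, animal and treatment or genotype cannot be told apart in any comparison that uses those libraries. No such comparison can be made without them. Kdm1a, which encodes LSD1, was read at 31.1 to 47.3 in every library, but its level cannot show an amino acid substitution. Of 10 macrophage markers in the table, all were read in every library, with a summed level of 16190 to 19640. With LPS, 4 of these 10 rose and 3 fell in the knock-in, and 6 rose and 3 fell in wild type. The summed level of 12 stromal cell markers was 89.8 and 91.2 in knock-in LPS, against 28.4 to 35.7 in the other groups. Mast cell and basophil markers (8 genes) summed to 89.2 and 92.2 in knock-in LPS, 38.1 and 37.1 in untreated knock-in, 69.1 and 69.3 in wild-type LPS, and 38.2 and 37.7 in untreated wild type. Dendritic cell markers (9 genes) summed to 255 and 247 in knock-in LPS, 348 and 361 in untreated knock-in, 551 and 550 in wild-type LPS, and 337 and 347 in untreated wild type. In knock-in LPS against untreated knock-in, 9 of 10 tested stromal, 7 of 8 mast cell and 8 of 11 neutrophil markers rose and 6 of 7 dendritic cell markers fell. In wild type with LPS, 1 stromal marker rose and 2 fell, 7 of 8 mast cell, 8 of 11 neutrophil and all 7 dendritic cell markers rose. All tested genes were called higher in 28.5% and lower in 28.3% with LPS in the knock-in, and in 26.8% and 30.7% in wild type. The part of these cells in the results below was not tested. In bulk RNA, fewer cells of a type and less RNA per cell cannot be told apart.

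Promoter sequence was read for the members because Tfeb, Tfe3 and Mitf are among them. RefSeq windows from 250 bases before to 50 bases after a transcription start (GRCm38.p6) were at hand for 31 of the 38 genes. The E-box TCACGTG, searched on both strands, was found in 9 of these 31 genes (29%). It was found in 7.14% of the 8854 tested genes with a window, in 22.7% of 97 other lysosomal pathway genes, and in 3.77% of all 32851 windows. The longer palindrome known as the CLEAR element, which contains it, was found in none of the 31, in 4.12% of the 97 other pathway genes, in 0.847% of tested genes and in 0.326% of all windows. A match is a description of the sequence and not evidence of binding. To show how the shared E-box lies in the 9 promoters, a 30-base stretch of each is given 5′ to 3′ on the strand of the gene. Capitals mark TCACGTG or its reverse complement CACGTGA, including the start of a neighbouring site at the end of the Ctsa and Lamp1 stretches.

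Ctsa, chr2:164833749-164833778 (+ strand), protective protein and carboxypeptidase: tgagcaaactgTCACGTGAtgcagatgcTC
Ctsd, chr7:142387908-142387937 (- strand), aspartyl protease: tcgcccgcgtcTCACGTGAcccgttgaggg
Gla, chrX:134601182-134601211 (- strand), alpha-galactosidase A: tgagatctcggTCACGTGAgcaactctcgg
Glb1, chr9:114401018-114401047 (+ strand), beta-galactosidase: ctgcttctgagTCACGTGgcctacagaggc
Gaa, chr11:119267811-119267840 (+ strand), acid alpha-glucosidase: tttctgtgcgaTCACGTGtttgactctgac
Lamp1, chr8:13159088-13159117 (+ strand), membrane glycoprotein: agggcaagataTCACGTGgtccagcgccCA
Mcoln1, chr8:3500462-3500491 (+ strand), calcium channel: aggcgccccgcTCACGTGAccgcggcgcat
Atp6v0d1, chr8:105566050-105566079 (- strand), membrane-sector subunit of the ATPase: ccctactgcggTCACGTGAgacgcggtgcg
Atp6v1a, chr16:44139373-44139402 (- strand), catalytic subunit of the ATPase: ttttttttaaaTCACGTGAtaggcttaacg

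Across the 9 genes there were 16 such sites, of which 8 were the palindrome TCACGTGA. For genes with several sites 1 is printed above, counted 5′ to 3′: site 2 of Ctsd, Gla and Mcoln1, and site 1 of Ctsa and Lamp1. The unprinted sites of Ctsd and Mcoln1 were not the palindrome, so the printed stretches show it more often than all sites do. Lamp1 held 4 of the 16 sites close together, the most of any member. Its whole window shows the cluster just before the start site, with the first site beginning 62 bases upstream.

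Lamp1, chr8:13158911-13159210 (+ strand): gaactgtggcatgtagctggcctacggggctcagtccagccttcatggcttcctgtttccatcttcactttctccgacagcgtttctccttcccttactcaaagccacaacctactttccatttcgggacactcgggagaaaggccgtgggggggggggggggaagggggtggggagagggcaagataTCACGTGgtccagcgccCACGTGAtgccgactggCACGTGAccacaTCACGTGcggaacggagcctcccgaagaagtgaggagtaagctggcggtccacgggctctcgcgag

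By the test of LPS against untreated knock-in cells given below, the E-box was held by 1 of the 9 genes with a window that were higher, by 5 of the 14 that were lower and by 3 of the 8 that passed in neither direction. The motif GAAA, any 2 bases and GAAA again, the core of the interferon-stimulated response element, was searched on both strands because LPS induces interferon. It was found in 2 of the 31 members, Ctss and Lamp1 (6.45%), in 7.22% of the 97 other pathway genes, in 3.91% of tested genes and in 3.44% of all windows. By the same knock-in test it was held by 1 of the 9 higher genes, 0 of the 14 lower and 1 of the 8 that passed in neither direction. The Ctss window is shown because Ctss had the largest increase among the members in knock-in LPS. In wild-type LPS Ctss did not rise. The motif is in capitals and begins 21 bases before the start.

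Ctss, chr3:95526536-95526835 (+ strand): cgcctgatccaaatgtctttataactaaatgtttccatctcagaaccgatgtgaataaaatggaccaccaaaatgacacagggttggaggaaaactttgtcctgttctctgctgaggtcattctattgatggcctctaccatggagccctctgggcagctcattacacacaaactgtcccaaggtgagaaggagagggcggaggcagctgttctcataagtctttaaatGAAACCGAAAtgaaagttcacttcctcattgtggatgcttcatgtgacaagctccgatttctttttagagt

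In knock-in cells given LPS, against untreated knock-in cells, 6 of 9 cathepsins rose, led by Ctss and Ctsh, while 6 of 11 other hydrolases and activators, among them Gusb and Glb1, and 4 of 6 vacuolar ATPase genes fell. Of the 38 members, 11 rose and 17 fell (limma, Benjamini-Hochberg adjusted p under 0.05). That is 73.7% of members, against 56.7% of all tested genes. Among 106 other tested genes of the lysosomal pathway the share was 68.9%. By mean value the members had a median percentile of 98.3 among tested genes. The set of all tested genes was not matched to the members by level, here or in the shares given below. The part of level in these shares was not tested. All tested genes were called higher in 28.5% and lower in 28.3%, and the members in 28.9% and 44.7%. The median log2 change was -0.11 over the members and 0.02 over all tested genes. Quantile normalization gave 9 higher and 18 lower, and turned the direction of none of these calls.

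In wild-type cells most of the 38 transcripts differed little after 2 h of LPS on the deposited scale, and Tfeb, Ctsc, Tfe3 and Mitf differed most. Against untreated wild-type cells, 6 of the 38 members rose and 4 fell, or 26.3%, while 57.6% of all tested genes were called (26.8% higher, 30.7% lower). The median absolute log2 change was 0.07 over the members and 0.24 over all tested genes. The count rests on the scaling: quantile normalization gave 2 higher and 29 lower, median-of-ratios scaling 11 higher and 3 lower, and edgeR and DESeq2 on whole reads 11 higher each. Higher calls were 60% of the members' calls on the deposited scale, 6.45% under quantile normalization, 78.6% under median-of-ratios scaling and 73.3% by edgeR and by DESeq2. Over all tested genes they were 46.6% on the deposited scale and 35.4% under quantile normalization. Without both knock-in LPS libraries, 5 members rose and 4 fell.

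Setting the knock-in against wild type with LPS, 12 members were higher and 17 lower, or 76.3%, which is near the 75.4% of all tested genes (38.5% higher, 36.8% lower). The LPS effect itself differed between knock-in and wild type for 26 members, 11 with a higher and 15 with a lower effect in the knock-in, or 68.4% against 63.7% of all tested genes (31.8% in each direction). Both counts turned round under quantile normalization, to 25 higher and 5 lower with LPS and to 22 higher and 5 lower for the difference in LPS effect. Both use the knock-in LPS libraries and share them with the first comparison, so they are not separate support for it.

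**Figure D1:**
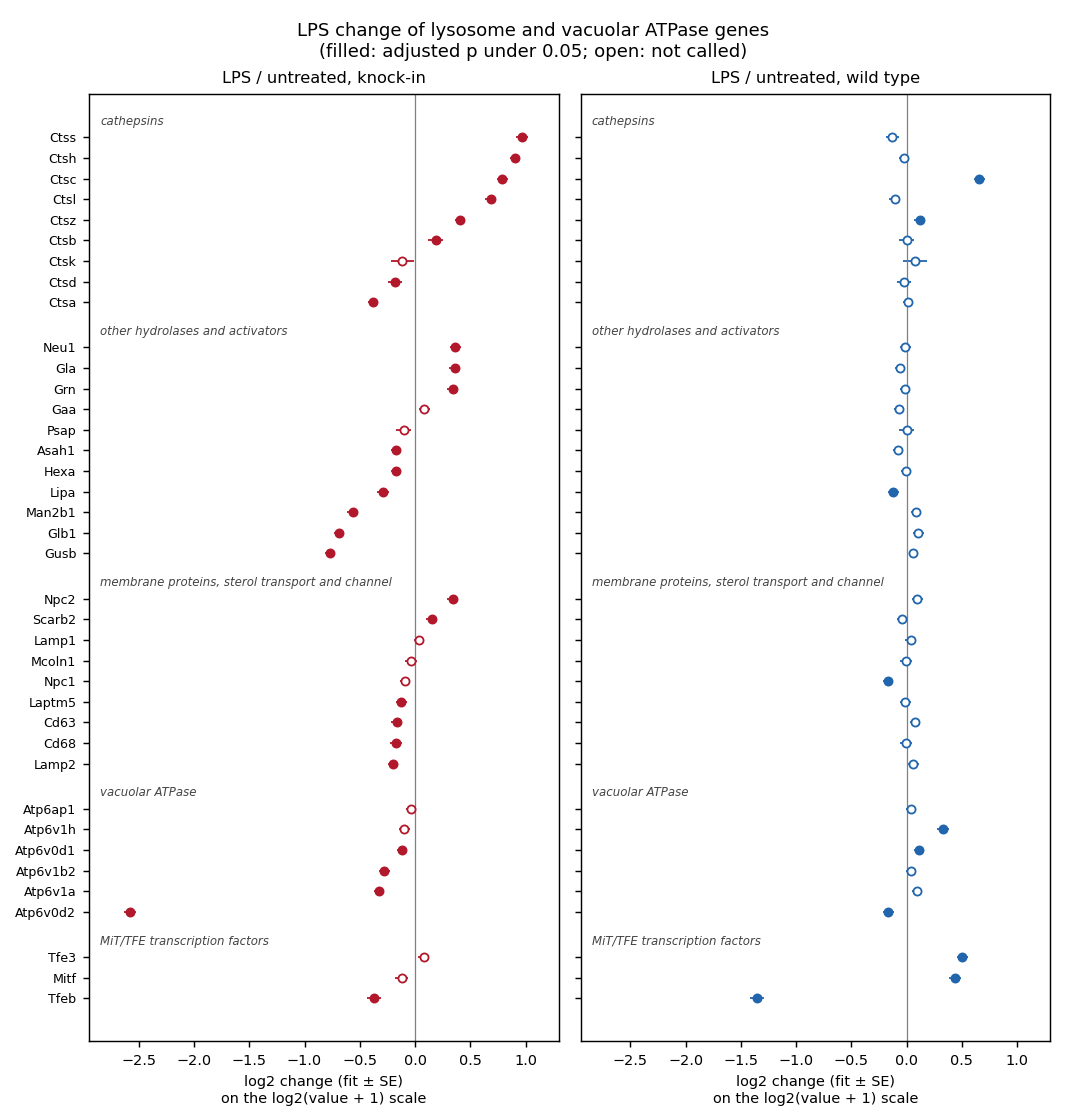
Log2 change with LPS against untreated (x axis, fit ± SE on the log2(value + 1) scale) of each member, grouped by role, in knock-in cells (left panel) and in wild-type cells (right panel). Filled points passed the threshold (28 in the knock-in, 10 in wild type) and open points did not; Atp6v0d2 at -2.58 in the knock-in and Tfeb at -1.35 in wild type lie farthest from 0. Under quantile normalization 29 members fell in wild type.

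The cathepsins that rose in knock-in LPS were all cysteine proteases, some with roles in antigen processing and protein turnover. Against untreated knock-in, 6 of the 9 rose and 2 fell (88.9%, against 56.7% of all tested genes). In wild type with LPS 2 rose and none fell (22.2% against 57.6%), or 1 rose and 4 fell under quantile normalization. Ctss, a protease that cleaves the invariant chain and works at near-neutral pH, stood at 13867 and 13168 in knock-in LPS, 6869 and 6944 in untreated knock-in, 6146 and 6262 in wild-type LPS, and 6693 and 6878 in untreated wild type. The knock-in LPS libraries were the only high ones and did not overlap with any other group. Its log2 change with LPS was 0.97 ± 0.06 (SE; limma adjusted p = 4.73e-13) in the knock-in, a 1.96-fold increase. In wild type it was -0.13 ± 0.06 (limma adjusted p = 0.0556). That decrease passed with a filter at 5, a robust trend, edgeR and DESeq2 (adjusted p = 0.00641 to 0.0496). Without untreated wild-type replicate 1 it was -0.149. It was 0 under quantile normalization, where a gene that keeps its rank cannot change, and Ctss ranked 10 by mean value.

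Ctsh, an aminopeptidase, followed the same pattern at 1012 and 978 in knock-in LPS, 528 and 534 in untreated knock-in, 493 and 507 in wild-type LPS, and 498 and 519 in untreated wild type. Its log2 change was 0.90 ± 0.04 in the knock-in (limma adjusted p = 1.91e-14) and -0.03 ± 0.04 in wild type, where the LPS and untreated libraries overlapped. Ctsl, an endopeptidase, had 4078 and 4137 in knock-in LPS, 2474 and 2634 in untreated knock-in, 2254 and 2320 in wild-type LPS, and 2454 and 2479 in untreated wild type. It rose by 0.69 ± 0.05 on the log2 scale in the knock-in (limma adjusted p = 2.9e-11), while in wild type its LPS libraries were the lower ones, with a log2 change of -0.11 ± 0.05 that did not pass (limma adjusted p = 0.0666; 0.0281 with a robust trend). With LPS, knock-in exceeded wild type 2.18-fold for Ctss, 1.99-fold for Ctsh and 1.80-fold for Ctsl, and these 3 calls held under every alternative run.

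Ctsc, the dipeptidyl peptidase that activates granule serine proteases, rose in both genotypes. Ctsz was the only other cathepsin called higher in both, with the smaller changes given below. Ctsc is described first. Ctsc stood at 758 and 694 in knock-in LPS, 428 and 411 in untreated knock-in, 679 and 701 in wild-type LPS, and 425 and 449 in untreated wild type. Both LPS groups lay above both untreated groups, with log2 changes of 0.79 ± 0.05 in the knock-in (limma adjusted p = 1.64e-12) and 0.66 ± 0.05 in wild type (limma adjusted p = 3.04e-11). The difference between the 2 effects was 0.13 (95% interval -0.01 to 0.28) and did not pass (limma adjusted p = 0.104), although it passed without knock-in LPS replicate 2 (0.0323) or untreated wild-type replicate 1 (0.0376). Under quantile normalization the wild-type change was 0.18, still called, and the difference was 0.63.

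Ctsz, a carboxypeptidase, rose by 0.41 in the knock-in (limma adjusted p = 1.41e-07), with 2094 and 2172 in knock-in LPS against 1563 and 1655 in untreated knock-in. In wild type its log2 change was 0.12 (limma adjusted p = 0.0416), a call lost without any of 5 single libraries (knock-in LPS replicate 1, both wild-type LPS and both untreated wild-type libraries; limma adjusted p = 0.0504 to 0.235) without the filter on low values (0.116) and with the compared libraries alone (0.0711), and turned to -0.57 by quantile normalization. Ctsb rose by 0.19 in the knock-in, with 24878 and 23535 in knock-in LPS against 21366 and 21141 in untreated knock-in (limma adjusted p = 0.0197). Because Ctsb ranked 1 by mean value among tested genes, quantile normalization can show little change in it. The Ctsb call was lost without knock-in LPS replicate 1 (0.148), untreated knock-in replicate 1 (0.0718) or untreated knock-in replicate 2 (0.0941), without the filter (0.315) and under quantile normalization (0.514).

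The 2 cathepsins that fell in knock-in LPS are of other enzyme classes. Ctsa, the carboxypeptidase that protects beta-galactosidase and sialidase in a complex, had 1243 and 1229 in knock-in LPS, 1599 and 1623 in untreated knock-in, 1521 and 1577 in wild-type LPS, and 1508 and 1564 in untreated wild type. The knock-in LPS libraries were below the rest, a log2 change of -0.38 ± 0.05 (limma adjusted p = 2.09e-07), while the wild-type groups overlapped. Ctsd, the aspartyl protease, fell by 0.18 on the log2 scale (limma adjusted p = 0.0203), with 13530 and 13548 in knock-in LPS against 15022 and 15634 in untreated knock-in. That call was lost without knock-in LPS replicate 1 (0.0736), knock-in LPS replicate 2 (0.0698) or untreated knock-in replicate 2 (0.14), without the filter (0.255) and under quantile normalization (0.074). Ctsd ranked 6 by mean value, so quantile normalization is a weak check on it too. Ctsk, a collagenase best known from osteoclasts, was the member with the fewest reads and passed in no comparison. It was at 6.98 and 8.15 in knock-in LPS and 8.47 and 8.03 in untreated knock-in. In wild type it was at 8.84 and 7.78 with LPS and 7.70 and 7.94 untreated.

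In 6 members, exons overlap another gene of the table in the GENCODE vM21 annotation: Ctsa, Ctsb, Ctsz, Atp6v1h and Lamp1 on the opposite strand, and Glb1 with Tmppe on the same strand. How reads were assigned by strand was not stated by the labels or notes, so reads of these pairs cannot be told apart with certainty.

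**Figure D2:**
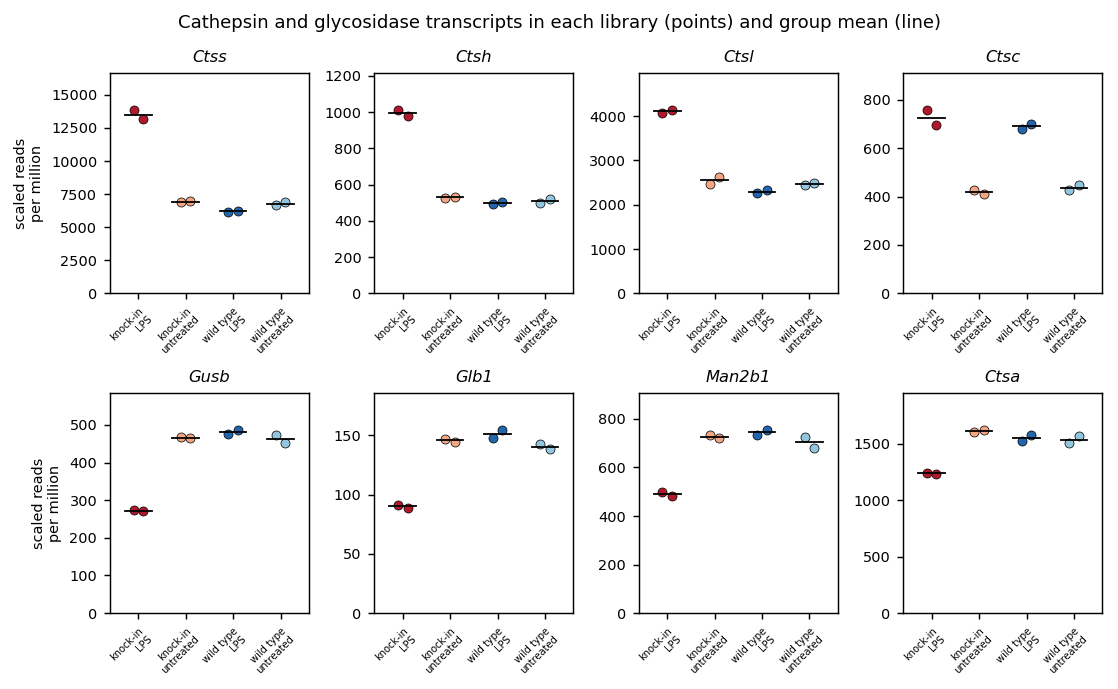
Scaled CPM (y axis, from 0) of 8 cathepsin and glycosidase genes in each library (points) and as group means (lines), for knock-in LPS, knock-in untreated, wild type LPS and wild type untreated from left to right. The knock-in LPS points of Ctss (13867 and 13168), Ctsh and Ctsl lie above the other groups, those of Gusb (273 and 271), Glb1, Man2b1 and Ctsa lie below them, and Ctsc is high in both LPS groups.

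Among the other hydrolases and activators, 3 of 11 rose and 6 fell in knock-in LPS against untreated knock-in (81.8%, against 56.7% of all tested genes). In wild type none rose and 1 fell (9.09% against 57.6%), while 10 fell under quantile normalization. The largest decreases were glycosidases. Gusb, beta-glucuronidase, had 273 and 271 in knock-in LPS, 468 and 465 in untreated knock-in, 477 and 487 in wild-type LPS, and 473 and 451 in untreated wild type. Only the knock-in LPS libraries were low, with a log2 change of -0.77 ± 0.04 (limma adjusted p = 3.04e-13), or 1.71-fold lower. Glb1, beta-galactosidase, had 91.4 and 89.1 in knock-in LPS, 147 and 145 in untreated knock-in, 148 and 155 in wild-type LPS, and 142 and 138 in untreated wild type. Its log2 change in the knock-in was -0.69 ± 0.05 (limma adjusted p = 1.61e-11). Man2b1, a lysosomal alpha-mannosidase, had 499 and 483 in knock-in LPS, 733 and 720 in untreated knock-in, 734 and 756 in wild-type LPS, and 726 and 681 in untreated wild type.

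Man2b1 fell by 0.57 ± 0.05 on the log2 scale in the knock-in (limma adjusted p = 2.3e-10). In wild type the log2 changes of Gusb, Glb1 and Man2b1 were 0.06, 0.11 and 0.08, none of them called, and quantile normalization turned them to -0.37, -0.21 and -0.43. For Gusb and Glb1 the LPS effect was lower in the knock-in under every alternative run, while for Man2b1 the difference of -0.65 shrank to -0.12 under quantile normalization (limma adjusted p = 0.107). The wild-type changes of Glb1 and Man2b1 passed as higher with median-of-ratios scaling, edgeR and DESeq2 (adjusted p = 0.0155 to 0.04), and that of Man2b1 also without untreated wild-type replicate 1 (0.0281).

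Sialidase and alpha-galactosidase moved the other way. Neu1, the sialidase, had 181 and 180 in knock-in LPS, 142 and 138 in untreated knock-in, 128 and 140 in wild-type LPS, and 137 and 133 in untreated wild type. Gla, alpha-galactosidase A, had 317 and 300.2 in knock-in LPS, 242 and 239 in untreated knock-in, 224 and 231 in wild-type LPS, and 241 and 234 in untreated wild type. Both rose by 0.36 on the log2 scale in the knock-in (limma adjusted p = 1.79e-06 for Neu1 and 5.45e-07 for Gla) and were not called in wild type, where quantile normalization gave -0.30 and -0.52. Within the complex of Ctsa, Glb1 and Neu1, therefore, 2 transcripts were lower and 1 was higher in knock-in LPS.

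Grn, which encodes progranulin, rose by 0.34 ± 0.05 in the knock-in (limma adjusted p = 2.8e-06), with 4031 and 4003 in knock-in LPS, 3169 and 3177 in untreated knock-in, 2979 and 3053 in wild-type LPS, and 3044 and 3053 in untreated wild type. Lipa, the acid lipase that frees cholesterol from its esters, fell by 0.29 in the knock-in (limma adjusted p = 4.91e-05), with 1807 and 1674 in knock-in LPS against 2152 and 2101 in untreated knock-in. Its wild-type change of -0.12 passed narrowly (limma adjusted p = 0.0492) and was lost without any of 5 single libraries (both untreated knock-in, both wild-type LPS and untreated wild-type replicate 2; limma adjusted p = 0.0603 to 0.326). It was also lost without the filter (0.166), with the compared libraries alone (0.0752), with median-of-ratios scaling (0.138), by edgeR (0.126) and by DESeq2 (0.122). Hexa and Asah1, which degrade gangliosides and ceramide, each fell by 0.17 in the knock-in, and the call for Asah1 was lost without knock-in LPS replicate 2 (limma adjusted p = 0.0708). Psap, the saposin precursor, and Gaa passed in neither LPS comparison, although Psap passed as lower in the knock-in with a robust trend (0.027) and by edgeR (0.0183). Gaa was called lower in wild-type LPS under quantile normalization (-0.37).

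With LPS, knock-in against wild type, 4 of these 11 were higher and 6 lower (90.9%, against 75.4% of all tested genes). Quantile normalization turned that to 7 higher and 2 lower. Gla, Neu1, Grn and Gaa were the higher ones, by 0.44, 0.43, 0.41 and 0.22 on the log2 scale, and all 4 kept that direction and call in every alternative. Gusb and Glb1 were lower by that test in every alternative too, at -0.82 and -0.74.

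Changes among the 9 membrane, sterol transport and channel proteins were small, at most 0.34 on the log2 scale in the knock-in (Npc2). In knock-in LPS against untreated knock-in, 2 of 9 rose and 4 fell (66.7%, against 56.7% of all tested genes). In wild type none rose and 1 fell (11.1% against 57.6%), while 9 fell under quantile normalization. Npc2, the soluble lumen protein that hands cholesterol to Npc1, rose by 0.34 ± 0.05 in the knock-in (limma adjusted p = 2.52e-06), with 2313 and 2290 in knock-in LPS, 1793 and 1841 in untreated knock-in, 1743 and 1818 in wild-type LPS, and 1719 and 1617 in untreated wild type. The knock-in LPS libraries were above all others. In wild type the Npc2 change was not called on the deposited scale. It passed as higher with median-of-ratios scaling, edgeR and DESeq2 (adjusted p = 0.0106 to 0.0263), and was called at -0.61 under quantile normalization. Npc1, the membrane exporter of cholesterol, was instead called in wild type, with 248 and 252 in wild-type LPS against 276 and 285 in untreated wild type (limma log2 change -0.17, adjusted p = 0.00247), a call that held in every alternative. In the knock-in, Npc1 had a log2 change of -0.09 that did not pass (limma adjusted p = 0.078), but did under quantile normalization (0.00397) and with the compared libraries alone (0.0493).

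Lamp1, one of the major glycoproteins of the lysosomal membrane, differed little between groups, at 2349 and 2349 in knock-in LPS, 2267 and 2322 in untreated knock-in, 2303 and 2323 in wild-type LPS, and 2228 and 2285 in untreated wild type. Lamp2 fell by 0.20 in the knock-in (limma adjusted p = 0.000757), with 498 and 482 in knock-in LPS against 544 and 585 in untreated knock-in. The remaining calls in the knock-in were small: the tetraspanin Cd63 and the macrophage glycoprotein Cd68 fell by 0.17 each, Laptm5 fell by 0.13, and Scarb2, the receptor that carries glucocerebrosidase to lysosomes, rose by 0.15. Each of these 4 calls was lost without at least 1 single library. Limma adjusted p values were then 0.0618 and 0.0757 for Cd63 (knock-in LPS replicate 1, untreated knock-in replicate 2), 0.0882 for Cd68 (untreated knock-in replicate 2), 0.248, 0.0962 and 0.143 for Laptm5 (knock-in LPS replicate 2, untreated knock-in replicates 1 and 2), and 0.129 and 0.0826 for Scarb2 (knock-in LPS replicate 1, untreated knock-in replicate 1). The calls were also lost without the filter for Cd68 (0.0741) and Laptm5 (0.127), and under quantile normalization for Laptm5 (0.0596) and Scarb2 (0.0879). Mcoln1, the calcium channel of the lysosome, had 59.2 to 65.3 in all 8 libraries and passed in no comparison on the deposited scale. Under quantile normalization it was called lower in wild-type LPS (-0.165, limma adjusted p = 0.0125).

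The largest change of any member was in the vacuolar ATPase. Against untreated knock-in, 4 of the 6 fell in knock-in LPS and none rose (66.7%, against 56.7% of all tested genes). In wild type 2 rose and 1 fell (50% against 57.6%), while none rose and 5 fell under quantile normalization. Atp6v0d2, the tissue-restricted form of the subunit that joins the membrane sector to the stalk, had 47.3 and 44.6 in knock-in LPS, 278 and 282 in untreated knock-in, 280 and 275 in wild-type LPS, and 292 and 331 in untreated wild type. The knock-in LPS libraries were 6.09-fold lower than untreated knock-in and far below every other library, with a log2 change of -2.58 ± 0.05 (limma adjusted p = 1.83e-21) that stayed between -2.69 and -2.54 in all alternatives.

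In wild type Atp6v0d2 fell by 0.16 (limma adjusted p = 0.0111), a call lost without wild-type LPS replicate 2 (0.0669) or untreated wild-type replicate 2 (0.254) and without the filter (0.0532). Untreated wild-type replicate 2 was the highest of its libraries. Atp6v0d1, the widely expressed paralog, had 136 and 139 in knock-in LPS, 147 and 151 in untreated knock-in, 155 and 160 in wild-type LPS, and 145 and 146 in untreated wild type. It fell by 0.12 in the knock-in (limma adjusted p = 0.0355) and rose by 0.11 in wild type (limma adjusted p = 0.0423). Its knock-in call was lost without any 1 of the 4 knock-in libraries (limma adjusted p = 0.0663 to 0.192). Its wild-type call was lost without any 1 of the 8 libraries (limma adjusted p = 0.0552 to 0.209) and turned to -0.20 under quantile normalization.

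Because Atp6v0d2 is also known from osteoclasts and multinucleated giant cells, 9 markers of those cells were read beside it. They summed to 301 and 295 in knock-in LPS, 280.3 and 276 in untreated knock-in, 299.5 and 302 in wild-type LPS, and 273 and 281 in untreated wild type. Calcr was at 0 in every library. Dcstamp, which is needed for cell fusion, was at 0.077 and 0 in knock-in LPS, 1.75 and 1.85 in untreated knock-in, 3.07 and 3.28 in wild-type LPS, and 1.78 and 2.13 in untreated wild type. Acp5, the acid phosphatase of osteoclasts, was at 157 and 154 in knock-in LPS against 102 and 108 in untreated knock-in. Acp5 also rose in wild type, to 131 and 133 in wild-type LPS against 95.7 and 93.8 in untreated wild type. Of 7 of these markers tested, 2 rose and 4 fell in knock-in LPS (85.7%), and 4 rose and 1 fell in wild-type LPS (71.4%). The shares over all tested genes were 56.7% and 57.6%. The part of such cells in the Atp6v0d2 result was not tested.

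In the cytosolic sector of the pump, 2 of the 3 members fell. Atp6v1a, the catalytic subunit, had 620.1 and 618 in knock-in LPS, 783 and 767 in untreated knock-in, 856 and 809 in wild-type LPS, and 789 and 773 in untreated wild type. Its log2 change in the knock-in was -0.32 ± 0.05 (limma adjusted p = 1.76e-06). Atp6v1b2 of the same sector fell by 0.28 (limma adjusted p = 2.11e-05), with 764 and 777 in knock-in LPS against 940.3 and 926 in untreated knock-in. Neither was called in wild type on the deposited scale. There Atp6v1a passed as higher with median-of-ratios scaling (limma adjusted p = 0.0245), by edgeR (adjusted p = 0.0246) and by DESeq2 (adjusted p = 0.0145). Quantile normalization instead turned Atp6v1a and Atp6v1b2 to calls of -0.42 and -0.49 in wild type.

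Atp6v1h, a regulatory subunit, rose instead in wild type, with 130 and 134 in wild-type LPS against 107 and 103 in untreated wild type (a log2 rise of 0.33 ± 0.05 by limma, adjusted p = 1.15e-05). In the knock-in its LPS libraries (99.8 and 108) overlapped the untreated ones (114 and 107), although quantile normalization called it lower there (-0.16). The wild-type rise shrank to 0.05 under quantile normalization and was not called there. Atp6ap1, an accessory protein of the pump, passed in no comparison on the deposited scale. Quantile normalization called it lower in wild-type LPS (-0.379), higher in knock-in than wild type with LPS (0.374) and higher for the difference in LPS effect (0.352). With LPS, 5 of the 6 pump genes were lower in knock-in than in wild type (83.3%, against 75.4% of all tested genes). Of these 5, Atp6v0d2 (-2.57) and Atp6v1h (-0.35) were also lower under quantile normalization, where 3 other pump genes were called higher.

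**Figure D3:**
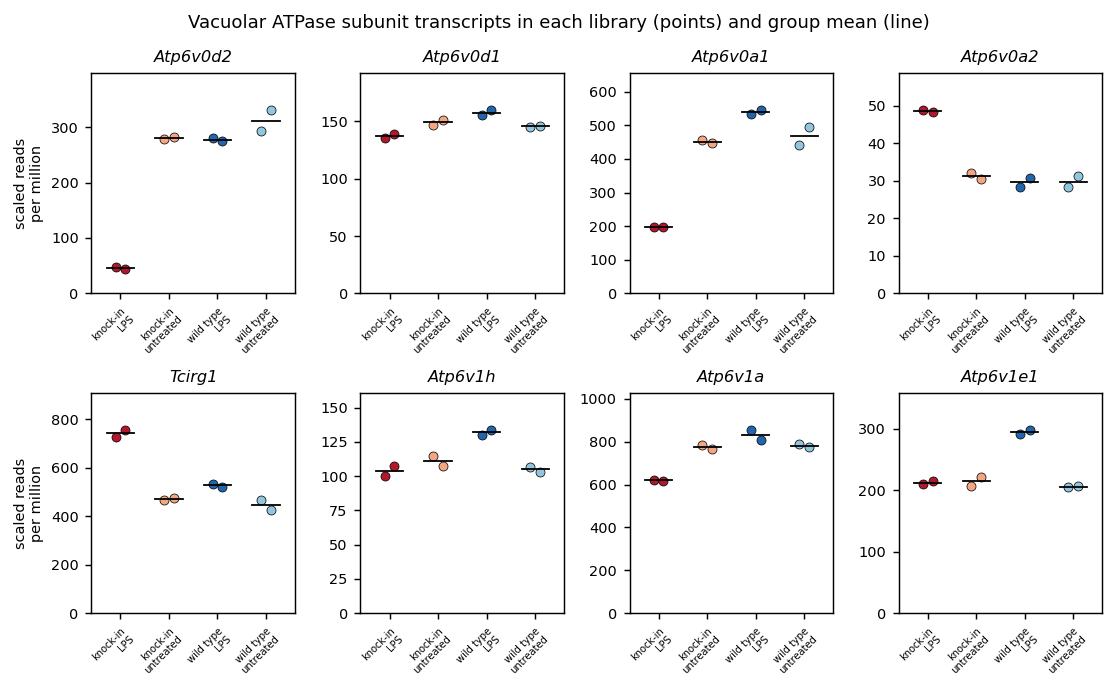
Scaled CPM (y axis, from 0) of 8 vacuolar ATPase genes in each library (points) and as group means (lines), for knock-in LPS, knock-in untreated, wild type LPS and wild type untreated from left to right. Atp6v0d2 was at 47.3 and 44.6 in knock-in LPS against 275 or more in all other libraries, Atp6v0a1 was low in the same group, and Tcirg1 and Atp6v0a2 were high there.

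Subunits of the pump outside the 38 did not all follow. Of 13 other subunit genes tested, 4 rose and 5 fell in knock-in LPS against untreated knock-in (69.2%, against 56.7% of all tested genes). In wild type 7 rose and none fell (53.8% against 57.6%), while none was higher and 8 lower under quantile normalization. The membrane-sector a subunits, which set where the pump is placed, differed from each other in the knock-in. Atp6v0a1 fell by 1.18 on the log2 scale (limma adjusted p = 9.08e-16), with 197 and 198 in knock-in LPS, 456 and 447 in untreated knock-in, 532 and 546 in wild-type LPS, and 441 and 496 in untreated wild type. Tcirg1, which encodes the a3 subunit, rose by 0.65 (limma adjusted p = 3.63e-11), with 726 and 757 in knock-in LPS against 467 and 475 in untreated knock-in. Tcirg1 also rose in wild type on the deposited scale, by 0.24 (limma adjusted p = 0.000187). Atp6v0a2 rose by 0.62 (limma adjusted p = 4.23e-08), with 48.9 and 48.4 in knock-in LPS against 31.9 and 30.5 in untreated knock-in.

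The 3 transcription factors all differed between wild-type LPS and untreated wild type, Tfeb lower and Tfe3 and Mitf higher. Tfeb had 44.1 and 45.7 in knock-in LPS, 58.6 and 58.1 in untreated knock-in, 20.6 and 20.7 in wild-type LPS, and 54.5 and 54.1 in untreated wild type. Both LPS groups were below their untreated groups, and the wild-type one was the lowest. The log2 change was -0.37 ± 0.06 in the knock-in (limma adjusted p = 1.29e-05) and -1.35 ± 0.06 in wild type (limma adjusted p = 8.8e-16), a 2.63-fold decrease. The difference between these effects, 0.98 ± 0.08, passed (limma adjusted p = 4.84e-10) and ranged from 0.94 to 1.01 over the alternatives.

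Tfe3, a close relative of Tfeb, was higher in wild-type LPS, with 248 and 261 there against 176 and 183 in untreated wild type (a log2 rise of 0.50 ± 0.05 by limma, adjusted p = 1.81e-09). In the knock-in it had 195 and 189 with LPS and 181 and 183 untreated, a log2 change of 0.08 that did not pass (limma adjusted p = 0.165). Mitf, better known from melanocytes and osteoclasts, likewise had 111 and 115 in wild-type LPS against 81.4 and 84.9 in untreated wild type (a log2 rise of 0.44 ± 0.06 by limma, adjusted p = 3.2e-07), and 73.0 and 66.3 in knock-in LPS against 76.5 and 75.0 in untreated knock-in. Under quantile normalization the wild-type rise of Mitf was 0.17 and still called, and that of Tfe3 was 0.04 and not called. The Mitf change of -0.12 in the knock-in did not pass (limma adjusted p = 0.067), but did without knock-in LPS replicate 1 (0.0237), under quantile normalization (0.0106), by edgeR (0.0484) and with the compared libraries alone (0.0458).

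**Figure D4:**
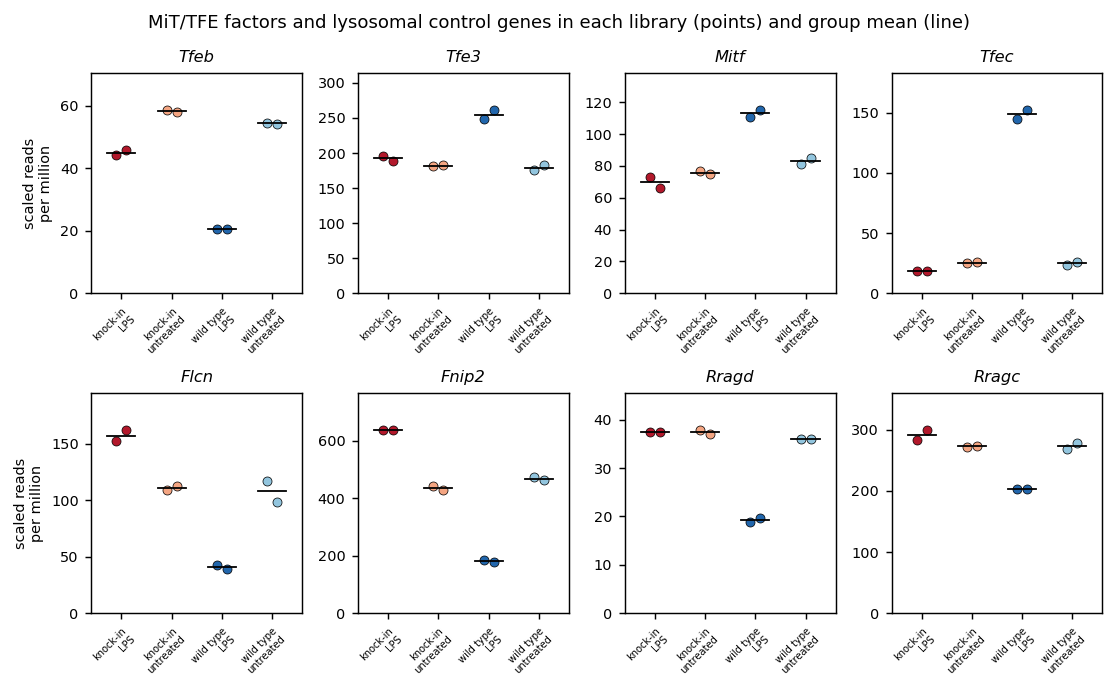
Scaled CPM (y axis, from 0) of the 3 factors, their relative Tfec, and 4 genes that control them at the lysosome, in each library (points) and as group means (lines), for knock-in LPS, knock-in untreated, wild type LPS and wild type untreated from left to right. In wild-type LPS, Tfeb (20.6 and 20.7), Flcn, Fnip2 and Rragd are at their lowest and Tfec (145 and 152) at its highest.

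A further list held genes that act on these factors at the lysosomal surface, with the related factor Tfec. Of 19 tested, 7 rose and 4 fell in knock-in LPS (57.9%), and 4 rose and 8 fell in wild-type LPS (63.2%; 2 and 10 under quantile normalization), shares near the 56.7% and 57.6% of all tested genes. Flcn and Fnip2, partners in the complex that acts on the Rag GTPases, fell by 1.38 and 1.36 on the log2 scale in wild type (limma adjusted p = 3.6e-15 and 1.18e-18). Flcn had 152 and 163 in knock-in LPS, 109 and 113 in untreated knock-in, 42.5 and 38.7 in wild-type LPS, and 117 and 98.8 in untreated wild type. Fnip2 had 635 and 638 in knock-in LPS, 442 and 429 in untreated knock-in, 183 and 179 in wild-type LPS, and 472 and 462 in untreated wild type. Both were therefore lowest in wild-type LPS and highest in knock-in LPS.

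Rragd, a Rag GTPase, fell by 0.87 in wild type (limma adjusted p = 3.08e-11), with 18.8 and 19.7 in wild-type LPS against 36.1 and 36.0 in untreated wild type. In the knock-in its groups overlapped, at 37.6 and 37.5 with LPS and 37.96 and 37.1 untreated. Tfec, the fourth gene of the family, whose expression is typical of myeloid cells, rose by 2.53 in wild type (limma adjusted p = 1.59e-20). It had 18.5 and 18.3 in knock-in LPS, 24.8 and 25.9 in untreated knock-in, 145 and 152 in wild-type LPS, and 23.7 and 26.1 in untreated wild type.

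Enzyme genes outside the 38 numbered 35 tested, of which 11 rose and 15 fell in knock-in LPS (74.3%, against 56.7% of all tested genes). In wild-type LPS 5 rose and 11 fell (45.7% against 57.6%), or 4 and 25 under quantile normalization. Sgsh, which degrades heparan sulfate, fell by 0.87 in wild type, with 90.4 and 84.3 in wild-type LPS against 166 and 155 in untreated wild type. Among 20 genes that sort proteins to the lysosome, 5 rose and 7 fell in knock-in LPS (60%). In wild-type LPS 5 rose and 8 fell (65%), or 1 and 14 under quantile normalization. The shares of 60% and 65% are near those of all tested genes. Sort1, the sorting receptor sortilin, had 17.8 and 16.4 in knock-in LPS, 79.6 and 78.1 in untreated knock-in, 73.6 and 72.5 in wild-type LPS, and 76.0 and 72.5 in untreated wild type. That is a log2 change of -2.14 in the knock-in (limma adjusted p = 2.9e-19), and the wild-type groups overlapped.

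The mannose 6-phosphate receptors bring most soluble hydrolases to the lysosome. Igf2r, the larger receptor, had 161 and 164 in knock-in LPS, 258 and 247 in untreated knock-in, 407 and 389 in wild-type LPS, and 260.1 and 256 in untreated wild type. It was below its untreated group in the knock-in (-0.63, limma adjusted p = 3.13e-11) and above it in wild type (0.62, limma adjusted p = 2.33e-11). M6pr, the smaller receptor, rose by 0.49 in wild type, with 476 and 473 in wild-type LPS against 341 and 334 in untreated wild type. Of 16 other lysosomal membrane protein genes, 8 rose and 5 fell in knock-in LPS (81.2%, against 56.7% of all tested genes). In wild-type LPS 3 rose and 8 fell (68.8% against 57.6%), or 2 and 12 under quantile normalization. The calcium channel Mcoln2 rose by 1.27 in wild type, with 123 and 118 in wild-type LPS against 49.5 and 49.3 in untreated wild type. Of 3 cathepsin inhibitors tested, 1 rose and 1 fell in knock-in LPS, and all 3 rose in wild-type LPS (1 rose and 2 fell under quantile normalization).

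Summed over the 38 members, the deposited values came to 102900 and 100300 in knock-in LPS, 92880 and 94250 in untreated knock-in, 88150 and 89650 in wild-type LPS, and 90450 and 88350 in untreated wild type. As a share of all reads on genes, the same sums were 10.5% and 10.2% in knock-in LPS, 9.82% and 9.87% in untreated knock-in, 7.74% and 7.76% in wild-type LPS, and 9.68% and 9.45% in untreated wild type. On the deposited scale wild-type LPS overlapped untreated wild type, and as a share of reads it was below it in both libraries. The library factors behind this difference were 0.878 and 0.866 in wild-type LPS, against 1.02 to 1.07 in the other 6 libraries. Cathepsins made up most of the sum. They came to 61470 and 59470 in knock-in LPS and 49860 and 50580 in untreated knock-in. In wild type they came to 46920 and 47730 with LPS and 48540 and 47340 untreated. Group means of Ctss were 13517 in knock-in LPS and 6906 in untreated knock-in, and those of Ctsb 24206 and 21254. Those of Ctsd were 13539 and 15328. A few abundant genes therefore weigh most in the sum, while 11 of the 38 members rose and 17 fell in knock-in LPS against untreated knock-in.

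**Figure D5:**
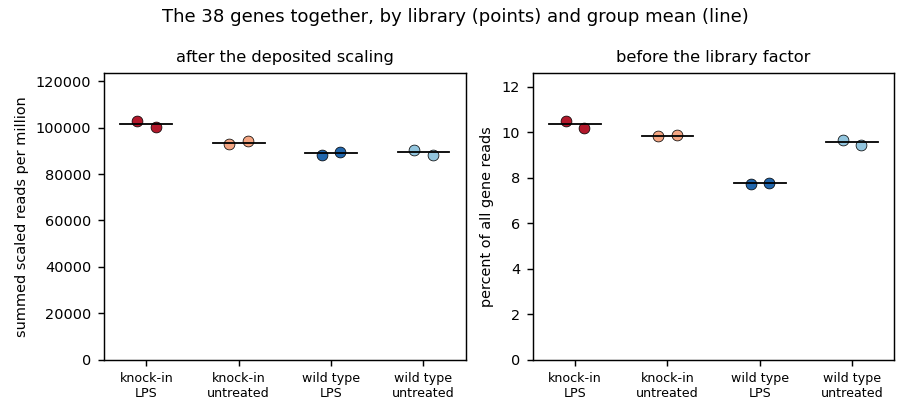
Summed value of the 38 members in each library (points) and as group means (lines), on the deposited scale (left, scaled CPM) and as a percent of all gene reads (right), for knock-in LPS, knock-in untreated, wild type LPS and wild type untreated from left to right; both axes start at 0. Knock-in LPS is highest on both scales (102900 and 100300), and wild-type LPS is lowest as a percent of reads (7.74% and 7.76%). Abundant genes such as Ctsb and Ctss weigh most in the sum.

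Without LPS, no difference between knock-in and wild type was detected for any of the 38 transcripts. No member passed (limma, 0 of 38), while 1 of the 11919 tested genes did, or 0.00839%. That background rests on 1 library: without untreated wild-type replicate 1, 483 genes were called. It was 31 genes by DESeq2 and 18 with a robust trend. At an unadjusted p under 0.05, 5 members passed, which is 13.2% of them, against 13.6% of all tested genes. Those 5, named because they are few, were Ctsd, Ctsz and Npc2, higher in the knock-in by 0.15, 0.11 and 0.12 on the log2 scale, and Atp6v0d2 and Mitf, lower by 0.15 and 0.13. edgeR and DESeq2 on whole reads also called 0 members after adjustment, and 6 members each at an unadjusted p under 0.05. Over all 38, 30 log2 differences were above 0 and 8 below. Their median was 0.042, against -0.0024 over all tested genes, and 0.005 under quantile normalization. The 38 differences lay between -0.15 and 0.15, and their 95% intervals between -0.26 and 0.29. Differences beyond those bounds are outside the intervals, and smaller ones cannot be told from 0 with 2 libraries a group. Without untreated wild-type replicate 1, Atp6v0d2 passed as lower in the knock-in (-0.24, limma adjusted p = 0.0142). Group means of the knock-in LPS libraries enter neither this comparison nor LPS in wild type, but those libraries share in the estimate of the spread. Without both of them, 0 members were called here.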

How the data were processed

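RNA-seq libraries of 4 groups (2 each) were analysed from 1 table of 23366 genes. Its unit is a signal: the authors deposited read counts per gene divided by a scaled library size, the form of TMM-scaled CPM. The form shows in the steps of the values: divided by the worth of 1 read, 100% were whole numbers (tolerance 0.001). The tools named are TopHat2 (2.0.9), edgeR and bedtools, and the build is mm9, per the submitters' processing notes. Counting rule, strand and annotation: not given in the sources used here. Quantities that set the library factor, such as a few strongly induced genes, move every value of a library together.

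Values were tested with limma 3.58.1 (R 4.3.3) on log2(value + 1), 2-sided, with a variance trend, in 1 model of 4 group means (4 residual and 19.1 prior degrees of freedom), over 11919 genes that reached 1 in at least 2 libraries. Folds are ratios of group means. In each of 5 comparisons the call was an adjusted p (Benjamini-Hochberg, over all tested genes) under 0.05. Fits were checked on simulated data. The alternatives were pseudocounts of 0.5 and 2, no filter and a filter at 5, quantile and median-of-ratios scaling, a robust trend, edgeR 4.0.16 and DESeq2 1.42.0 on the recovered whole reads (which called 6779 and 6842 genes by edgeR for LPS in knock-in and wild type), fewer libraries, replicate blocks and leaving out each library. Replicates differed by more than counting noise (mean chi-square per gene 5.75 to 13.8, where 1 is expected), so none was counted as a duplicate. GENCODE vM21 (GRCm38) was used only for gene overlaps and RefSeq GRCm38.p6 for promoters, since the files' build is another.

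The members and all gene lists were chosen with earlier results of these data known. All members could be named; values in every library were given for members called without overlap, up to 6 in each direction and comparison, and for others set beside them. Of each other list, up to 4 genes per comparison with the largest called change and a group mean of at least 5 could be named.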

Additional observations from a re-analysis of the deposited data

Results flagged for a closer look

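The LPS effect differed between knock-in and wild type, by the test of the difference itself (limma interaction term, Benjamini-Hochberg adjusted p under 0.05), for 26 of the 38 members, against 63.7% of all tested genes. Every one of these differences uses the knock-in LPS libraries, which differ from the other 6 in Xist and the Y-linked genes, and the part of sex or animal in them cannot be told apart. Differences are log2, knock-in minus wild type.

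A higher effect in the knock-in was found for Ctss (1.10), Tfeb (0.98), Ctsh (0.93), Ctsl (0.80), Gla (0.42), Neu1 (0.37), Grn (0.36), Ctsz (0.29), Npc2 (0.25), Scarb2 (0.19) and Gaa (0.15). For Tfeb both genotypes fell and the knock-in fell less. For Ctss, Ctsh, Ctsl, Gla, Neu1, Grn, Npc2 and Scarb2 only the knock-in change passed by itself, and for Gaa neither did. In wild type the Npc2 change passed as higher with median-of-ratios scaling, by edgeR and by DESeq2.

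A lower effect in the knock-in was found for Atp6v0d2 (-2.42), Gusb (-0.83), Glb1 (-0.79), Man2b1 (-0.65), Mitf (-0.56), Tfe3 (-0.43), Atp6v1h (-0.42), Atp6v1a (-0.41), Ctsa (-0.39), Atp6v1b2 (-0.31), Lamp2 (-0.26), Cd63 (-0.24), Atp6v0d1 (-0.23), Lipa (-0.17) and Hexa (-0.16). For Mitf, Tfe3 and Atp6v1h the change that passed by itself was the wild-type rise. Atp6v0d1 was called in opposite directions in the 2 genotypes.

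The calls for Gaa, Hexa, Lipa and Scarb2 were lost when a single library was left out, with limma adjusted p values of 0.0831 to 0.128 for Gaa (any library but untreated wild-type replicate 2), 0.0506 to 0.135 for Hexa (any knock-in library or wild-type LPS replicate 2), 0.067 to 0.248 for Lipa (any library but knock-in LPS replicate 1 and untreated wild-type replicate 2) and 0.0677 to 0.109 for Scarb2 (knock-in LPS replicate 1, untreated knock-in replicate 1 or wild-type LPS replicate 2). The Gaa call was also lost with median-of-ratios scaling (0.0933), a robust trend (0.057), edgeR (0.181) and DESeq2 (0.0932), that of Lipa with a pseudocount of 2 (0.0504) and without the filter (0.164), that of Hexa without the filter (0.0577) and that of Scarb2 by edgeR (0.0864). Under quantile normalization Ctsa, Hexa, Lipa, Lamp2, Cd63, Atp6v1a and Atp6v1b2 changed sign and Man2b1, Atp6v0d1 and Tfe3 were not called.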

How the results depend on the processing

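Of 3838 log2 values of members under the alternatives, 112 lost a call, 73 gained one, and 36 that were called as reported or in the alternative changed sign, all 36 under quantile normalization. A further 76 values changed sign without a call in either, 10 of them under quantile normalization. Under it, calls in wild-type LPS were 2 higher and 29 lower, in knock-in against wild type with LPS 25 higher and 5 lower, and for the difference in LPS effect 22 higher and 5 lower. Calls in wild-type LPS were 11 higher with median-of-ratios scaling, 11 by edgeR and 11 by DESeq2, and 2 lower without the filter. Median-of-ratios scaling, edgeR and DESeq2 each left 12 higher and 17 lower in knock-in against wild type with LPS.

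The values that changed sign with a call as reported or in the alternative were, in wild-type LPS, Atp6ap1 -0.379, Atp6v0d1 -0.199, Atp6v1a -0.424, Atp6v1b2 -0.492, Cd63 -0.396, Ctsa -0.711, Ctsz -0.572, Glb1 -0.212, Gusb -0.372, Lamp1 -0.424, Lamp2 -0.396, Man2b1 -0.427 and Npc2 -0.609. In knock-in against wild type with LPS they were Asah1 0.231, Atp6ap1 0.374, Atp6v0d1 0.0289, Atp6v1a 0.123, Atp6v1b2 0.236, Cd63 0.332, Cd68 0.155, Ctsa 0.245, Hexa 0.414, Lamp2 0.152, Laptm5 0.398 and Lipa 0.277. For the difference in LPS effect they were Asah1 0.332, Atp6ap1 0.352, Atp6v1a 0.144, Atp6v1b2 0.159, Cd63 0.251, Ctsa 0.245, Hexa 0.41, Lamp1 0.432, Lamp2 0.206, Laptm5 0.398 and Lipa 0.348. The cause was not tested.

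Leaving out 1 library at a time gave 9 to 11 higher and 12 to 17 lower in knock-in LPS, 4 to 6 and 2 to 5 in wild-type LPS (2 lower without wild-type LPS replicate 2 or untreated wild-type replicate 2), 11 to 13 and 14 to 17 between genotypes with LPS, 9 to 12 and 13 to 16 for the difference in effect, and 0 higher and 0 to 1 lower without LPS (1 without untreated wild-type replicate 1). Between genotypes with LPS, calls of Asah1, Cd63, Cd68, Ctsb and Hexa were each lost without at least 1 library.

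Replicate numbers were not shown to pair the libraries: deviations of same-numbered libraries correlated at -0.133 to 0.137 between groups. With the replicate block, calls were 11 higher and 17 lower in knock-in LPS, 6 and 3 in wild-type LPS, 0 and 0 without LPS, 12 and 17 between genotypes with LPS, and 11 and 14 for the difference in effect. The block ended the calls of Lipa in wild-type LPS (limma adjusted p = 0.056) and for the difference in effect (0.0563), and no other. A crossed pairing, chosen after seeing the data, gave 11 and 18, 6 and 6, 0 and 0, 12 and 17, and 11 and 16, with 126 of all tested genes called without LPS. With 2 libraries a group, changes of about 0.1 on the log2 scale are at the limit of what was called.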
